A study of Mus musculus with 9 samples.

Results

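Fatty acid oxidation and ketogenesis were followed through a list of 35 mouse genes, taken by symbol and matched to the Ensembl identifiers of the deposited tables, which hold 56398 features in all. All 35 were found. The series measured RNA by sequencing in 9 libraries from BALB/c mice, in 3 groups of 3. The sham group was healthy colon. The model group was tumour tissue, labelled as colon tumour, from BALB/c mice injected with CT26 cells, a BALB/c colon carcinoma line, and given saline daily, for which the labels also print 6 g/kg. The AC group was tumour tissue from mice injected with the same cells and given Astragalus and Curcuma phaeocaulis Valeton, a pair of herbs, at 2:1 and 6 g/kg daily. Both tumour groups thus carry the injection, and no injected mouse's colon and no mouse given the herbs without a tumour is among the groups. Nothing in the labels gives the injection site, the ages or the length of treatment. Whether a group's 3 samples are separate animals is also unstated, and p-values therefore reflect the spread of these samples alone, part of which may be technical.

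In mitochondrial beta-oxidation, long-chain fatty acids are activated to acyl-CoA, carried into the matrix by the carnitine shuttle and shortened by repeated rounds of dehydrogenation, hydration, dehydrogenation and thiolysis, while peroxisomes shorten other chains. Ketogenesis turns the acetyl-CoA into ketone bodies, and colonocytes are known for burning butyrate, a short-chain fatty acid made by gut bacteria, along this route. The PPAR nuclear receptors and their coactivator PGC-1 alpha drive many of these genes.

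Levels are given as FPKM divided by the library's TMM scaling factor, a per-length scale. For most listed genes the length is that of all exons of the gene model summed, so levels of different genes compare only roughly. Fold changes are log2 values from edgeR's quasi-likelihood test with Benjamini-Hochberg adjustment over all tested genes, and a gene was called higher or lower at an adjusted p under 0.05. The libraries held 15690038 to 23476056 counts. Beside the listed genes, the sum of 10 colonic epithelial markers was 16397, 28024 and 28990 in sham 1, 2 and 3. It was 245, 116 and 96.8 in model tumours 1, 2 and 3, and 150, 139 and 561 in AC tumours 1, 2 and 3, in tissue labelled as colon tumour. Krt20, an epithelial keratin, made nearly all of that sum in 4 of the 6 tumours: it measured 112 and 92.2 in model tumours 2 and 3 and 140 and 133 in AC tumours 1 and 2. Across all 6 tumours it held between 3.28% and 7.18% of its colon mean. The other 9 markers were at no more than 0.169% of their colon means in those 4 tumours, and at no more than 3.98% in model tumour 1 and AC tumour 3. Sham 1 stood apart from sham 2 and sham 3, with a B cell marker sum of 291 against 40.7 and 17.5, and a smooth muscle sum of 38.5 against 470 and 510. Over all genes, sham 2 and sham 3 differed by a chi-square of 2.88 per degree of freedom. Sham 1 differed from them by 88.64 and 104.67, so that no pair was within sampling noise. Pairs of tumours of the same group differed by 9.19 to 25.41, so sham 2 and sham 3 were the closest pair. Fits without sham 1 take the colon spread from them alone, and part of that spread may be technical. Macrophage markers summed to between 12.7 and 14.4 in colon, 112 and 158 in model tumours, and 132 and 200 in AC tumours. In bulk tissue such as this, fewer cells of a type and less RNA per cell cannot be told apart. The part of these tissue differences in the results against colon was not tested, and the epithelial and macrophage sums separate the tumours from colon without overlap.

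Setting model tumours against healthy colon shows how the injected tumour and normal tissue differ. RNA of most of the listed genes was lower in the tumours: of 34 that passed the filter on low counts, 29 were called lower and 3 higher. Over all 18228 genes tested, 32.9% were called lower and 36.8% higher. The median log2 fold change was -2.66 over the 34 genes and 0.12 over all tested genes. The 3 that rose were Acsl5, an acyl-CoA synthetase, Cd36, a fatty acid uptake receptor, and Angptl4, a secreted inhibitor of lipoprotein lipase. Eci1 and Hsd17b4 were not called, and Fabp1, the liver-type fatty acid binding protein, had too few counts to test. Without scaling factors the median of all genes moved from 0.12 to 0.72, and 24.2% of all genes were called lower and 49.7% higher, while the listed genes gave 27 lower and 3 higher. With sham 1 left out, 31 listed genes were called lower. Calls over all genes also rose, to 7086 lower and 8253 higher of 19464 tested, from 5997 and 6700 of 18228.

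**Figure D1:**
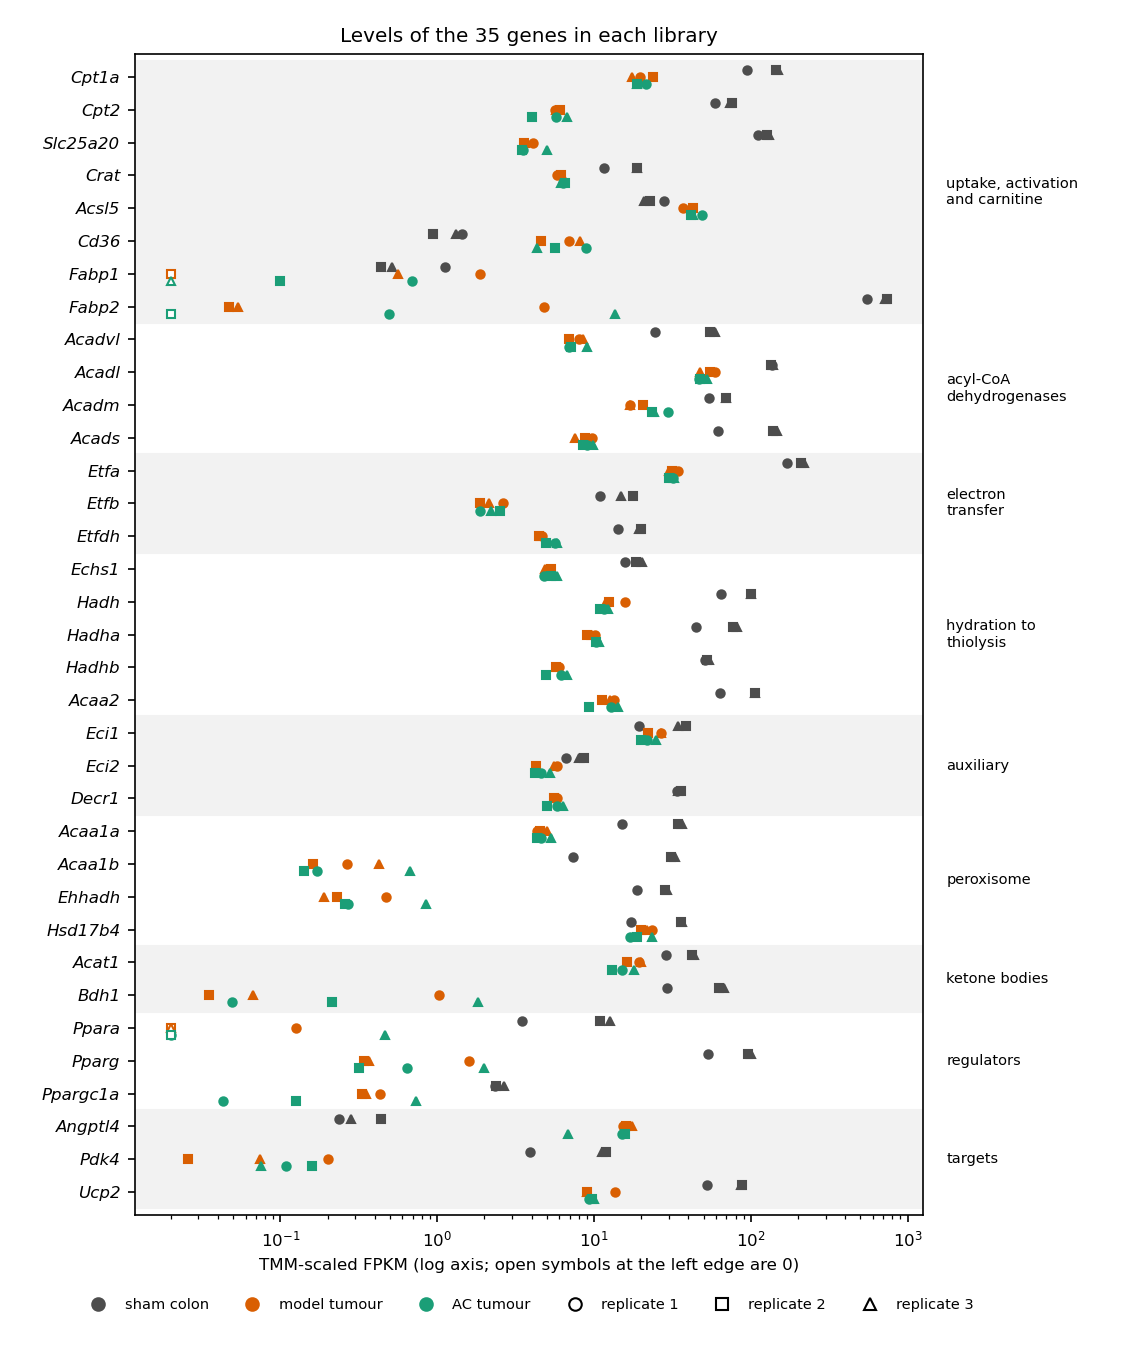
Level of each of the 35 genes in each library, as TMM-scaled FPKM on a log axis, with colour for the group and symbol for the replicate, ordered by role. Open symbols at the left edge are libraries at 0. Colon lies to the right of all 6 tumours in most rows, and Acsl5, Cd36 and Angptl4 are the reverse. The tumours spread widest for Fabp1, Fabp2, Bdh1, Ppara, Ppargc1a, Pdk4 and Pparg.

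The carnitine shuttle was low in every tumour. Slc25a20, the carnitine-acylcarnitine translocase of the inner mitochondrial membrane (ENSMUSG00000032602, GRCm38 chromosome 9, 108662088 to 108684641), measured 112, 127 and 131 in colon, 4.1, 3.58 and 3.62 in model tumours, and 3.54, 3.45 and 4.98 in AC tumours. The tumours of both groups lay within 2.8% to 4.04% of the colon mean, far from the colon libraries and close to one another. Its log2 fold change in model tumours was -5.01 (SE 0.165, edgeR adjusted p = 1.44e-05), a 32.2-fold lower level. Cpt2, the carnitine palmitoyltransferase of the inner membrane, measured 59.5, 76 and 74 in colon and 5.65, 6.1 and 5.75 in model tumours (-3.56, SE 0.137, edgeR adjusted p = 1.57e-05).

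Cpt1a, the liver-type outer membrane transferase and the controlled step of fatty acid entry (ENSMUSG00000024900, chromosome 19, 3322334 to 3385733), measured 94.5, 145 and 150 in colon against 19.7, 23.9 and 17.6 in model tumours. Its fall was smaller in size than those of Slc25a20 and Cpt2, at -2.64 (SE 0.223, edgeR adjusted p = 0.000116). Crat, the carnitine acetyltransferase that buffers acetyl-CoA, fell by 1.41 on the log2 scale (SE 0.193, edgeR adjusted p = 0.000806), from 11.5, 18.8 and 18.8 in colon to 5.8, 6.14 and 6.27. In Cpt1a the length behind the deposited FPKM is 4300 bases, and the summed exons of GENCODE M21 are 7642 bases, so its level relative to other genes depends on the gene model. The same holds for Eci1, at 1091 against 2127 bases, and to a lesser degree for Angptl4, at 3286 against 3541.

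Genes of uptake and activation went both ways. Acsl5, the long-chain acyl-CoA synthetase best known from intestine, measured 28.1, 22.7 and 20.9 in colon, 37.1, 42.6 and 41.6 in model tumours, and 49.1, 41.6 and 42.8 in AC tumours. It was the most abundant listed gene of uptake and activation in tumours, and it rose by 0.77 in model tumours (SE 0.165, edgeR adjusted p = 0.00566). Cd36 (ENSMUSG00000002944, chromosome 5, 17781690 to 17888801) measured 1.45, 0.937 and 1.32 in colon and 6.9, 4.57 and 8.11 in model tumours, a rise of 2.41 (SE 0.306, edgeR adjusted p = 0.000584). Macrophages and endothelium, which are known to make Cd36, also had more marker RNA in tumours: all 5 macrophage and all 4 endothelial markers were called higher. The part of these cells in the Cd36 level was not tested.

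Fabp2, the intestinal fatty acid binding protein of enterocytes (ENSMUSG00000023057, chromosome 3, 122895072 to 122899506), measured 549, 736 and 716 in colon, the highest levels of the list. In model tumours it was 4.78, 0.0471 and 0.0537, and in AC tumours 0.492, 0 and 13.6, so that single tumours of both groups stood far above the others. The log2 fold change in model tumours was -8.56 (SE 1.65, edgeR adjusted p = 0.00345). Without model tumour 1 it was -13.46, resting on 2 counts in the remaining model tumours against 25440 in colon, a ratio of 13305 with a 95% exact counting interval of 3683 to 109869. Without model tumour 2 it was -7.97. Fabp1 was at most 1.12 in colon and 1.88 in tumours, and had 58 counts over all 9 libraries.

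The 4 straight-chain acyl-CoA dehydrogenases, which take the first step of each round for chains of different length, all fell. Acads, for short chains such as butyrate (ENSMUSG00000029545, chromosome 5, 115110299 to 115119346), measured 61.5, 139 and 147 in colon, 9.74, 8.78 and 7.56 in model tumours, and 9.03, 8.54 and 9.85 in AC tumours. Each tumour held between 6.53% and 8.5% of the colon mean, and the log2 fold change in model tumours was -3.7 (SE 0.353, edgeR adjusted p = 0.000183). Acadl, for long chains, was the least changed of the 4: it measured 136, 134 and 139 in colon and 59, 55.2 and 47.2 in model tumours (-1.32, SE 0.149, edgeR adjusted p = 0.000346). The 3 colon libraries were level for Acadl, although sham 1 was the lowest colon library for 31 of the 35 genes and stood at 0.43 of the mean of the other colon libraries for Acads.

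Acadm, for medium chains, measured 54.5, 69.5 and 69.1 in colon and 16.9, 20.5 and 16.9 in model tumours, and fell by 1.81 (SE 0.147, edgeR adjusted p = 9.89e-05). Acadvl, for very long chains, fell by 2.52 (SE 0.324, edgeR adjusted p = 0.000621), from 24.5, 54.7 and 58.9 in colon to between 6.96 and 8.57. Of its exon bases, 42.9% also lie in exons of Dvl2 on the opposite strand, and the strand setting of the counting is not given, so its reads are uncertain.

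Electrons from these dehydrogenases pass through the electron transfer flavoprotein, whose subunits are Etfa and Etfb, and through its oxidoreductase Etfdh to ubiquinone. All 3 genes fell in model tumours. Etfa measured 169, 210 and 218 in colon and 34.5, 31.3 and 30.1 in model tumours (-2.61, SE 0.154, edgeR adjusted p = 3.51e-05). Etfb fell by almost the same amount, -2.68 (SE 0.275, edgeR adjusted p = 0.000245), at levels of 10.9 to 17.7 in colon and 1.88 to 2.62 in model tumours. Exons of Gm45233 and Mir7051, on the same strand, cover 58.2% of the Etfb exon bases, so its level cannot be set beside that of Etfa. Etfdh fell by 1.95 (SE 0.149, edgeR adjusted p = 7.82e-05).

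The 5 enzymes from hydration to thiolysis fell by 1.8 to 3.15 on the log2 scale. Hadha and Hadhb encode the alpha and beta subunits of the mitochondrial trifunctional protein, which carries out these steps for long chains. Hadhb measured 50.8, 52.9 and 54.1 in colon, 5.95, 5.7 and 5.84 in model tumours, and 6.16, 4.94 and 6.75 in AC tumours. It was level within colon and within the model tumours, and its fall of 3.15 (SE 0.124, edgeR adjusted p = 1.61e-05) was the steepest of the 5. Hadha measured 45, 77.4 and 82 in colon and 10.1, 9.02 and 9.77 in model tumours (-2.8, SE 0.242, edgeR adjusted p = 0.000126).

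Hadha and Hadhb are transcribed in opposite directions from neighbouring start sites on chromosome 5, which lie 273 bases apart in RefSeq, and both genes fell. Part of the stretch between the sites is therefore shown, as the RefSeq window of 250 bases before to 50 after the Hadhb start on build GRCm38.p6, plus strand, chr5:30155003-30155302, of which 228 bases are also in the Hadha window. In RefSeq the Hadhb start lies in it and the Hadha start lies before its first base. GENCODE M21 differs and puts the start of the Hadha gene at 30155162, inside the window. Capitals mark each match to the GC box GGGCGG on either strand.
Hadhb: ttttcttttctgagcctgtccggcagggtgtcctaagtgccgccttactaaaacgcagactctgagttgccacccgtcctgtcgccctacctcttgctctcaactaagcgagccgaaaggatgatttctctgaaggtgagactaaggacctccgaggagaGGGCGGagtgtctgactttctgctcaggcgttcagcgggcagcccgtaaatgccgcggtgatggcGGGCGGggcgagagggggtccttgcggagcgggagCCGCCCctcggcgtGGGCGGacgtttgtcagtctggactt
The window holds 4 GC boxes and no CCAAT. A window was found for 29 of the 35 genes, and a gene was counted when any of its windows matched. A GC box was found for 20 of them (69%), against 49.2% of 17492 protein-coding genes. CCAAT was found for 48.3% of the listed genes with a window and 42.3% of the protein-coding genes. The half-site AGGTCA bound by nuclear receptors was found for 7 listed genes (24.1%) against 16.7%. A direct repeat of that half-site with any 1 base between the copies was found for 0 (0.0572% of the protein-coding genes). All motifs were read on both strands, and a match describes the letters in these windows only.

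Of the other enzymes of the round, Hadh, the hydroxyacyl-CoA dehydrogenase for shorter chains, measured 64.5, 100 and 99.8 in colon and 15.7, 12.4 and 11.9 in model tumours (-2.7, SE 0.23, edgeR adjusted p = 0.000121). Acaa2, the mitochondrial thiolase of medium chains, fell by 2.85 (SE 0.224, edgeR adjusted p = 8.71e-05). Echs1, the short-chain enoyl-CoA hydratase, had the smallest fall of the 5, at -1.8 (SE 0.129, edgeR adjusted p = 6.32e-05), from 15.7, 18.5 and 20.1 in colon to 5.2, 5.32 and 4.9.

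The auxiliary enzymes, which handle the double bonds of unsaturated chains, split. Decr1, the 2,4-dienoyl-CoA reductase, measured 33.9, 36.1 and 34.4 in colon and 5.77, 5.54 and 5.52 in model tumours, or -2.61 (SE 0.12, edgeR adjusted p = 2e-05). The enoyl-CoA isomerase Eci1 measured 19.5, 38.6 and 34.5 in colon and 26.7, 22.1 and 26.8 in model tumours, so that the groups overlapped through sham 1. It was not called (-0.26, SE 0.257, edgeR adjusted p = 0.387), but without sham 1 it was called at -0.5 (edgeR adjusted p = 0.00587). The colon spread then came from sham 2 and sham 3 alone. The related isomerase Eci2 measured 6.65, 8.6 and 8.05 in colon and 5.78, 4.28 and 5.55 in model tumours, and fell by 0.56 (SE 0.18, edgeR adjusted p = 0.0291). The Eci2 call was lost without sham 2 (edgeR adjusted p = 0.0594), model tumour 2 (0.104) or model tumour 3 (0.0857), without the filter on low counts (0.0711) and with a replicate block (0.0772), and the sign turned without scaling factors (0.05).

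Peroxisomal members ranged from nearly level to nearly absent. Ehhadh, the bifunctional peroxisomal enzyme (ENSMUSG00000022853, chromosome 16, 21761287 to 21787807), measured 18.9, 28.2 and 29.1 in colon, 0.474, 0.229 and 0.191 in model tumours, and 0.271, 0.26 and 0.845 in AC tumours. Its log2 fold change in model tumours was -6.33 (SE 0.422, edgeR adjusted p = 5e-05), and each tumour held at most 3.33% of the colon mean. Hsd17b4, the other bifunctional enzyme, for branched and very long chains, measured 17.1, 36 and 36.2 in colon and 23.4, 20 and 21.9 in model tumours. It was not called with sham 1 (-0.42, SE 0.276, edgeR adjusted p = 0.214) and was called without it (-0.69, edgeR adjusted p = 0.000124). The second p-value takes the colon spread from the close pair sham 2 and sham 3 alone. Like Eci1, Hsd17b4 had the opposite sign without scaling factors.

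The peroxisomal thiolases Acaa1a and Acaa1b differed in level. Acaa1a measured 15.1, 34.1 and 36.5 in colon and 4.33, 4.53 and 5 in model tumours (-2.6, SE 0.321, edgeR adjusted p = 0.000517). Acaa1b measured 7.33, 31 and 32.8 in colon and 0.265, 0.162 and 0.423 in model tumours (-6.35, SE 0.714, edgeR adjusted p = 0.000356), with sham 1 far below the other colon libraries. The copies lie on chromosome 9, their longest coding transcripts align over 1636 bases at 93% identity, and reads could be split between them, so both values are uncertain. Their RefSeq windows on GRCm38.p6 are shown so that copies close in their transcripts can be set side by side in their promoters. Capitals mark GGGCGG and CCAAT on either strand. Acaa1a is at chr9:119341044-119341343 on the plus strand, and Acaa1b at chr9:119157044-119157343 on the minus strand. In GENCODE M21 the Acaa1a gene begins at 119339676, so that its RefSeq window lies inside the M21 gene.
Acaa1a: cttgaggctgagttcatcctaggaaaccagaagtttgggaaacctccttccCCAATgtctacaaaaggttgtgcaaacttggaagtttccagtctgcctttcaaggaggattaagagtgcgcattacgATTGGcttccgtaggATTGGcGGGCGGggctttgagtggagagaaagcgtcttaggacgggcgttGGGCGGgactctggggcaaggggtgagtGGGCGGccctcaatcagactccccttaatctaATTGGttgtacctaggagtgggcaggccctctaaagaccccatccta
Acaa1b: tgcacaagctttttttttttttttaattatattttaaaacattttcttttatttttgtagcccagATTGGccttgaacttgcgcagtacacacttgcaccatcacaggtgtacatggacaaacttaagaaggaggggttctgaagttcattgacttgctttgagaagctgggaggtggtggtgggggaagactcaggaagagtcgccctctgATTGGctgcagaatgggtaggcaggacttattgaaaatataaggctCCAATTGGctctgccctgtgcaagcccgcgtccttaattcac
The Acaa1a window holds 3 GC boxes and 4 CCAAT boxes. The Acaa1b window holds 0 GC boxes and 4 CCAAT boxes, of which the last pair overlaps on opposite strands. GC content was 53.3% and 43.7%.

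Both listed ketone body genes fell. Bdh1, which interconverts acetoacetate and beta-hydroxybutyrate (ENSMUSG00000046598, chromosome 16, 31422280 to 31458901), measured 29.2, 62.5 and 67.6 in colon, 1.02, 0.0351 and 0.0667 in model tumours, and 0.0489, 0.213 and 1.82 in AC tumours. Model tumour 1 and AC tumour 3 were the highest of their groups. The log2 fold change in model tumours was -7.01 (SE 1.22, edgeR adjusted p = 0.00222), and -9.96 without model tumour 1. Acat1, the mitochondrial acetoacetyl-CoA thiolase, measured 28.9, 42.4 and 43.3 in colon and 19.5, 16.2 and 19.8 in model tumours, and fell by 1.02 (SE 0.18, edgeR adjusted p = 0.00234). Without scaling factors the Acat1 value was -0.41 and was not called (edgeR adjusted p = 0.0617).

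The 3 regulators fell. Pparg, the nuclear receptor of fat cells and of differentiated colonocytes (ENSMUSG00000000440, chromosome 6, 115360951 to 115490399), was the most abundant, with 53.4, 96.1 and 100 in colon, 1.59, 0.339 and 0.369 in model tumours, and 0.644, 0.319 and 1.99 in AC tumours (-6.68 in model tumours, SE 0.759, edgeR adjusted p = 0.000371, and -7.84 without model tumour 1). The fat cell markers Adipoq, Plin1 and Lep were at most 0.441 in any library, and Lep was at 0 in all. The 6 fat cell markers summed to between 9.18 and 13.5 in colon, of which Cidec made 8.25 to 13.1, and to between 0.272 and 2.85 in tumours. Ppara, the receptor best known for driving oxidation in liver (ENSMUSG00000022383, chromosome 15, 85734983 to 85802819), measured 3.47, 11 and 12.6 in colon and 0.126, 0 and 0 in model tumours (-7.47, SE 1.11, edgeR adjusted p = 0.00114). With model tumour 1 left out, Ppara was at least 481-fold lower, from a floor of 3 counts over the remaining model tumours. Ppargc1a, which encodes PGC-1 alpha, measured 2.34, 2.38 and 2.65 in colon and 0.429, 0.331 and 0.354 in model tumours (-2.7, SE 0.224, edgeR adjusted p = 0.000104).

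The 3 listed targets of these regulators did not share a direction. Pdk4, the kinase that shuts pyruvate dehydrogenase when fat is burnt (ENSMUSG00000019577, chromosome 6, 5483351 to 5496309), measured 3.92, 12 and 11.3 in colon and 0.201, 0.0259 and 0.0738 in model tumours, and changed by -6.36 (SE 0.769, edgeR adjusted p = 0.000477), or by -7.44 without model tumour 1. Angptl4 (ENSMUSG00000002289, chromosome 17, 33773750 to 33781830) measured 0.237, 0.439 and 0.28 in colon, 15.3, 16.1 and 17.4 in model tumours, and 15.2, 15.8 and 6.83 in AC tumours. It rose 51.5-fold in model tumours (log2 5.69, SE 0.253, edgeR adjusted p = 1.96e-05). Ucp2, a carrier of the inner mitochondrial membrane, measured 52.9, 87.8 and 86.2 in colon and 13.6, 9.06 and 9.06 in model tumours (-2.8, SE 0.287, edgeR adjusted p = 0.000242).

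**Figure D2:**
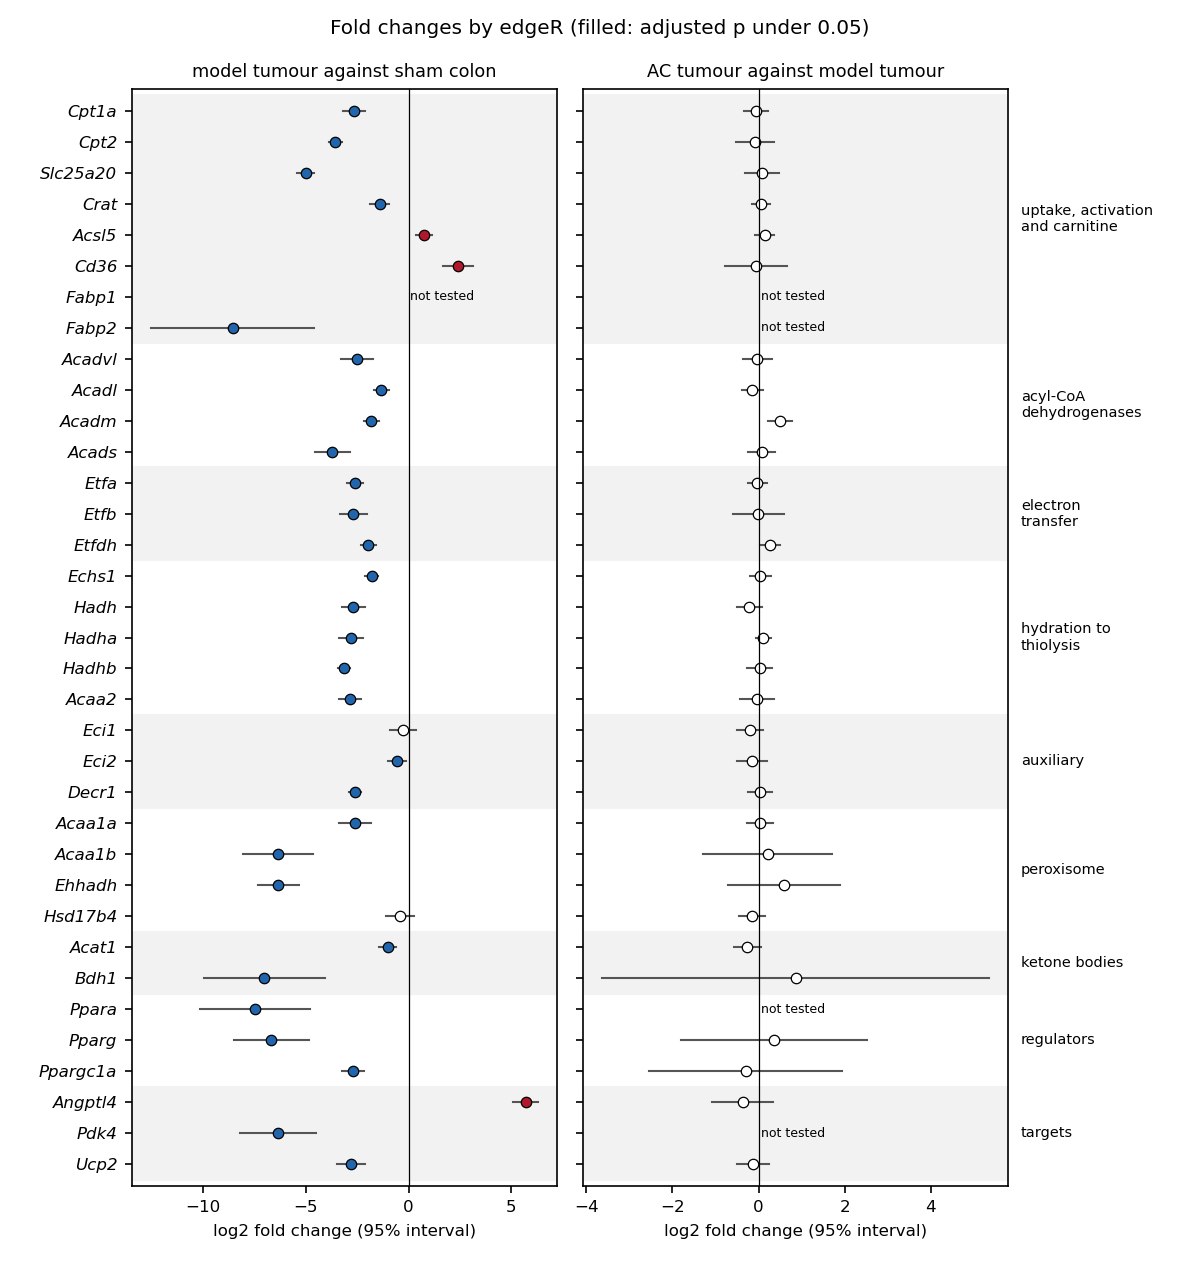
Log2 fold change of each gene by edgeR with its 95% interval, model tumour against sham colon on the left and AC tumour against model tumour on the right, by role. The x ranges of the panels differ. Filled points are called at an adjusted p under 0.05: 29 lower and 3 higher on the left, and 0 on the right.

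AC tumours were compared with model tumours to ask how the herb pair changes the tumour. No listed gene was called: of 31 tested, 0 passed edgeR's adjusted threshold, 2 had a p under 0.05 before adjustment, and the median log2 fold change was -0.01 (0.01 over all genes). Of all 17137 genes tested, 0% were called and 13.1% had a p under 0.05 before adjustment. DESeq2 called 1.78% of all genes and 1 listed gene, Acadm. Fabp2, Ppara and Pdk4 fell below the filter on low counts here, as did Fabp1. The groups did not overlap for 3 listed genes, all with AC tumours above, against 9.47% of all genes above and 9.59% below.

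The gene furthest from level in its test was Acadm (ENSMUSG00000062908, chromosome 3, 153922357 to 153944632). It measured 16.9, 20.5 and 16.9 in model tumours and 29.5, 23.4 and 24.1 in AC tumours, so that all AC tumours lay above all model tumours and below all colon libraries. The log2 difference was 0.5 (SE 0.118, 95% interval 0.23 to 0.77, edgeR adjusted p = 0.24). DESeq2 called it at the same size (adjusted p = 0.0226), as did edgeR without the filter on low counts (adjusted p = 0.0393), a setting that called 0.318% of all genes. With any 1 tumour left out the difference stayed between 0.4 and 0.6 and was not called.

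Etfdh and Hadha were the other genes without overlap. Etfdh measured 4.63, 4.45 and 4.57 in model tumours and 5.62, 4.92 and 5.82 in AC tumours (0.26, SE 0.101, edgeR adjusted p = 0.336). Hadha measured 10.1, 9.02 and 9.77 in model tumours and 10.3, 10.3 and 10.7 in AC tumours (0.11, SE 0.083, edgeR adjusted p = 0.579). The 3 differences were at most 1.42-fold.

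For abundant genes with close levels among the tumours the data bound the difference narrowly. The 95% interval of the log2 difference was -0.33 to 0.22 for Cpt1a, -0.31 to 0.47 for Slc25a20, -0.26 to 0.32 for Hadhb and -0.24 to 0.19 for Etfa. For genes whose tumours differed among themselves it was wide: -3.63 to 5.34 for Bdh1, -1.81 to 2.52 for Pparg and -0.7 to 1.9 for Ehhadh. Model tumour 1 and AC tumour 3 were the highest of their groups for each of the 3: Bdh1 had 107 counts in model tumour 1 against 3 and 5 in the others, and 135 in AC tumour 3 against 4 and 15. Whether these genes differ between the tumour groups by several-fold is therefore not settled by these libraries. Angptl4, though abundant in tumours, was bounded less narrowly, at -0.37 (SE 0.296, 95% interval -1.09 to 0.34, edgeR adjusted p = 0.625). AC tumour 3 lay below the other 5 tumours for Angptl4. Cd36 was -0.06 (SE 0.305, edgeR adjusted p = 0.949).

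Single tumours moved some of these values. AC tumour 3 was the highest of its group for 26 of the 35 genes and model tumour 1 for 22, with both true of 19. The difference was small for most: the highest tumour was less than 2 times the lowest for 24 genes. It was at least 4 times, or a tumour was at 0, for 9. Fabp2 was 94.8 times higher in model tumour 1 than in the mean of the other model tumours, and 55.2 times higher in AC tumour 3 than in the mean of the other AC tumours. The ratios were 20.1 and 13.9 for Bdh1, 4.49 and 4.14 for Pparg and 2.26 and 3.18 for Ehhadh. Ppara had 13 counts in model tumour 1, 34 in AC tumour 3 and 0 in the other 4 tumours. The epithelial marker Epcam had ratios of 60.9 and 89.9, with levels of 17.5 in model tumour 1 and 33.1 in AC tumour 3. The remaining tumours had at most 0.466 and colon at least 1377. Krt20, also an epithelial marker, had ratios of only 1.22 and 1.48. The part of epithelial RNA in the levels of Fabp2, Bdh1, Pparg, Ehhadh and Ppara in these tumours was not tested.

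Some genes had only 1 of the ratios raised. Ppargc1a had 1.25 in model tumour 1 and 8.66 in AC tumour 3: it measured 0.0433, 0.126 and 0.732 in AC tumours. Without AC tumour 3 its difference between AC and model tumours went from -0.3 to -2.16 and was called (edgeR adjusted p = 0.0453), in a comparison that then called 3.21% of all genes. Acaa1b had ratios of 0.908 and 4.3, and Pdk4 of 4.04 and 0.562. Angptl4 was lower in AC tumour 3, with ratios of 0.918 and 0.442. Across the listed genes, as a description, the ratios had a Spearman correlation of 0.25 over 34 genes and their logs a Pearson correlation of 0.79 over 33. All points share the same libraries, and model tumour 1 and AC tumour 3 were picked after the values were seen. The weight of the few genes with large ratios, such as Fabp2 and Bdh1, in the Pearson value was not tested. With model tumour 1 and AC tumour 3 both left out, 0 listed genes and 0.549% of all genes were called, with 2 libraries left in each group.

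**Figure D3:**
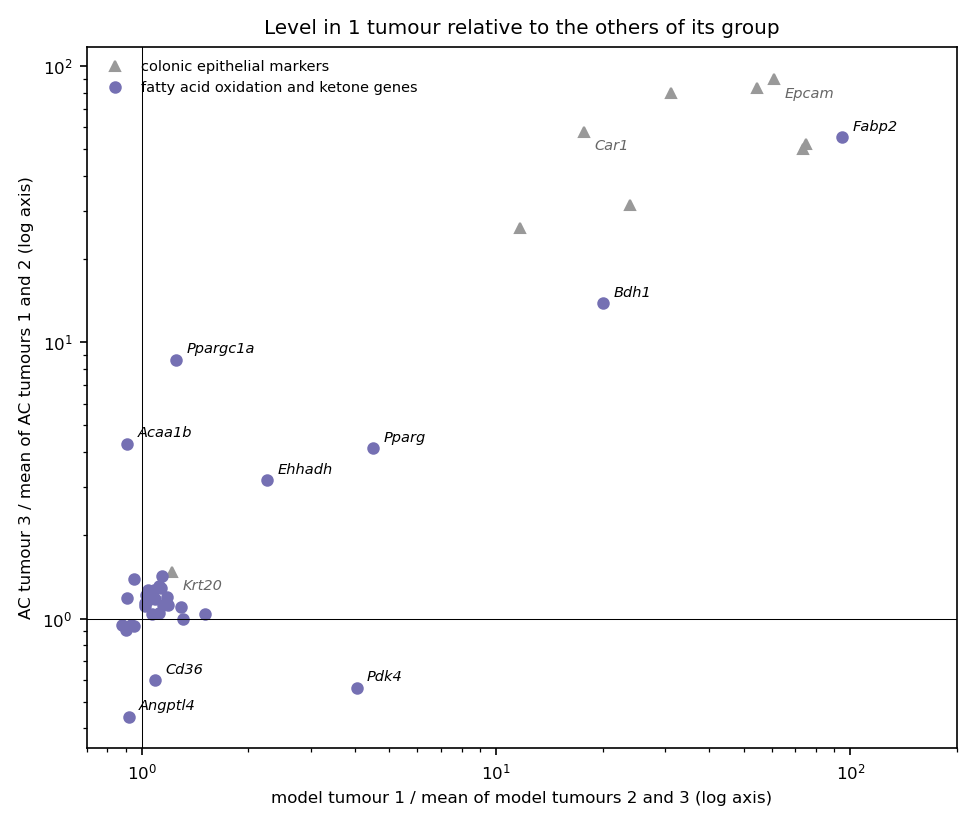
Level in model tumour 1 over the mean of model tumours 2 and 3 (x, log axis) against the level in AC tumour 3 over the mean of AC tumours 1 and 2 (y, log axis), for listed genes as circles and colonic epithelial markers as triangles. Most listed genes crowd at 1 on both axes, and Fabp2, with 94.8 and 55.2, and Bdh1 lie towards the epithelial markers. The epithelial marker Krt20 is an exception and lies near 1 on both axes.

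AC tumours were also set against colon, a comparison that shares the colon libraries with the first and the AC tumours with the second. The counts were the same as for model tumours: of 34 tested, 29 were called lower and 3 higher, against 32.7% and 35.5% of all 17832 genes (23.1% and 49.5% without scaling factors). The median was -2.7. The values beside those of model tumours were -4.94 and -5.01 for Slc25a20, -3.65 and -3.56 for Cpt2, -1.32 and -1.81 for Acadm, and 5.29 and 5.69 for Angptl4. Ehhadh was at -5.76 (SE 0.546, edgeR adjusted p = 0.000224), and at -6.55 without AC tumour 3. Bdh1 was at -6.21 (SE 1.26, edgeR adjusted p = 0.00508) (-8.67 without AC tumour 3 and -5.62 without AC tumour 1), and Pparg at -6.36 and -7.4.

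Several calls of low genes in AC tumours were near the threshold. Fabp2 was called at -7.1 (SE 1.87, edgeR adjusted p = 0.0145), and the call was lost without sham 1 (adjusted p = 0.0798) or without the filter on low counts (0.0672). It was at -11.27 without AC tumour 3 and at -6.49 without AC tumour 2. Ppara was called at -5.81 (SE 1.42, edgeR adjusted p = 0.011), lost without the filter on low counts (0.0512). Without AC tumour 3 the remaining AC tumours were at 0, and Ppara was at least 456-fold lower from the same floor. It was at -5.17 without AC tumour 1 and at -5.2 without AC tumour 2. Ppargc1a was called at -3 (SE 0.933, edgeR adjusted p = 0.0265). It was at -4.86 without AC tumour 3, and was lost without sham 1 (adjusted p = 0.0628), sham 2 (0.0501) or AC tumour 2 (0.0843), without scaling factors (0.0514) and without the filter (0.0555).

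Side by side, the listed genes fell into ranges of tumour level. For 10 genes every tumour held under 10% of the colon mean: the shuttle genes Cpt2 and Slc25a20, Fabp2, Acads, Acaa1b, Ehhadh, Bdh1, Ppara, Pparg and Pdk4. For 17, every tumour held under 50% and at least 1 held 10% or more, among them Cpt1a, Acadvl, Acadl, Acadm, Hadh, Hadha, Hadhb and Acaa2. For Acsl5, Cd36 and Angptl4 every tumour was above the colon mean. The other 5 were Eci1, Eci2, Hsd17b4, Acat1 and the nearly absent Fabp1. The bounds of these ranges were chosen after the values were seen.

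A further 57 genes of fatty acid and ketone body metabolism were read from the same fits. In model tumours against colon 54 were tested, 32 were called lower and 8 higher, with a median log2 fold change of -1.66. These are 59.3% lower and 14.8% higher, against 32.9% and 36.8% of all tested genes. Without scaling factors 30 were lower and 12 higher, against 24.2% and 49.7% of all genes. Against model tumours, AC tumours had 0 of 51 called by edgeR, 8 with a p under 0.05 before adjustment, against 13.1% of all genes, and 3 called by DESeq2, against 1.78% of all genes. Against colon, AC tumours had 36 of 53 lower (67.9%) and 7 higher (13.2%), against 32.7% and 35.5% of all genes. Without scaling factors these were 28 lower and 10 higher, against 23.1% and 49.5% of all genes.

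Of 14 tested genes of uptake, activation and carnitine, 7 were lower in model tumours (50%) and 3 higher (21.4%). The shares of all tested genes were 32.9% and 36.8%. Slc27a1, a fatty acid transport protein, rose from 0.986, 2.58 and 2.9 in colon to 29.5, 33.6 and 40 (4.02, SE 0.396, edgeR adjusted p = 0.000209), joining Cd36 and Acsl5. Slc22a5, the plasma membrane carnitine transporter, fell by 3.24 (SE 0.168, edgeR adjusted p = 2.72e-05), from 40.2, 47 and 49.9 to between 3.97 and 5.54. Of 12 further acyl-CoA genes, 5 were lower (41.7%) and 3 higher (25%), a share of lower calls near the 32.9% of all genes. Acad11, an acyl-CoA dehydrogenase, fell by 5.57 (SE 0.316, edgeR adjusted p = 3.24e-05), and Acadsb, which serves short branched chains of amino acid breakdown, rose by 1.3 (SE 0.163, edgeR adjusted p = 0.000549).

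Of 13 further peroxisomal genes, 9 were lower (69.2%) and 1 higher (7.69%) in model tumours, against 32.9% and 36.8% of all genes. The transporter Abcd3 measured 84, 106 and 114 in colon and 9.57, 9.14 and 9.24 in model tumours (-3.42, SE 0.161, edgeR adjusted p = 2.15e-05), and the related transporter Abcd2 rose by 2.48 (SE 0.441, edgeR adjusted p = 0.00246) at levels of at most 0.644. In AC tumours against colon the gene with the smallest adjusted p in this group was Decr2, the peroxisomal dienoyl-CoA reductase, at -3.58 (SE 0.15, edgeR adjusted p = 2.69e-05). Of 10 tested regulators and targets, 8 were lower (80%) and 0 higher in model tumours, against the same shares of all genes. The coactivator Ppargc1b was at -3.01 (SE 0.179, edgeR adjusted p = 3.61e-05).

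Of 5 further ketone body genes, 3 were lower (60%) and 1 higher (20%) in model tumours, against 32.9% and 36.8% of all genes. Slc16a1, a transporter of lactate, butyrate and ketone bodies, measured 237, 330 and 352 in colon and 67.5, 66.1 and 58 in model tumours (-2.24, SE 0.192, edgeR adjusted p = 0.000123). Bdh2, a cytosolic relative, rose by 1.74 (SE 0.392, edgeR adjusted p = 0.00676), at levels of at most 0.263.

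**Figure D4:**
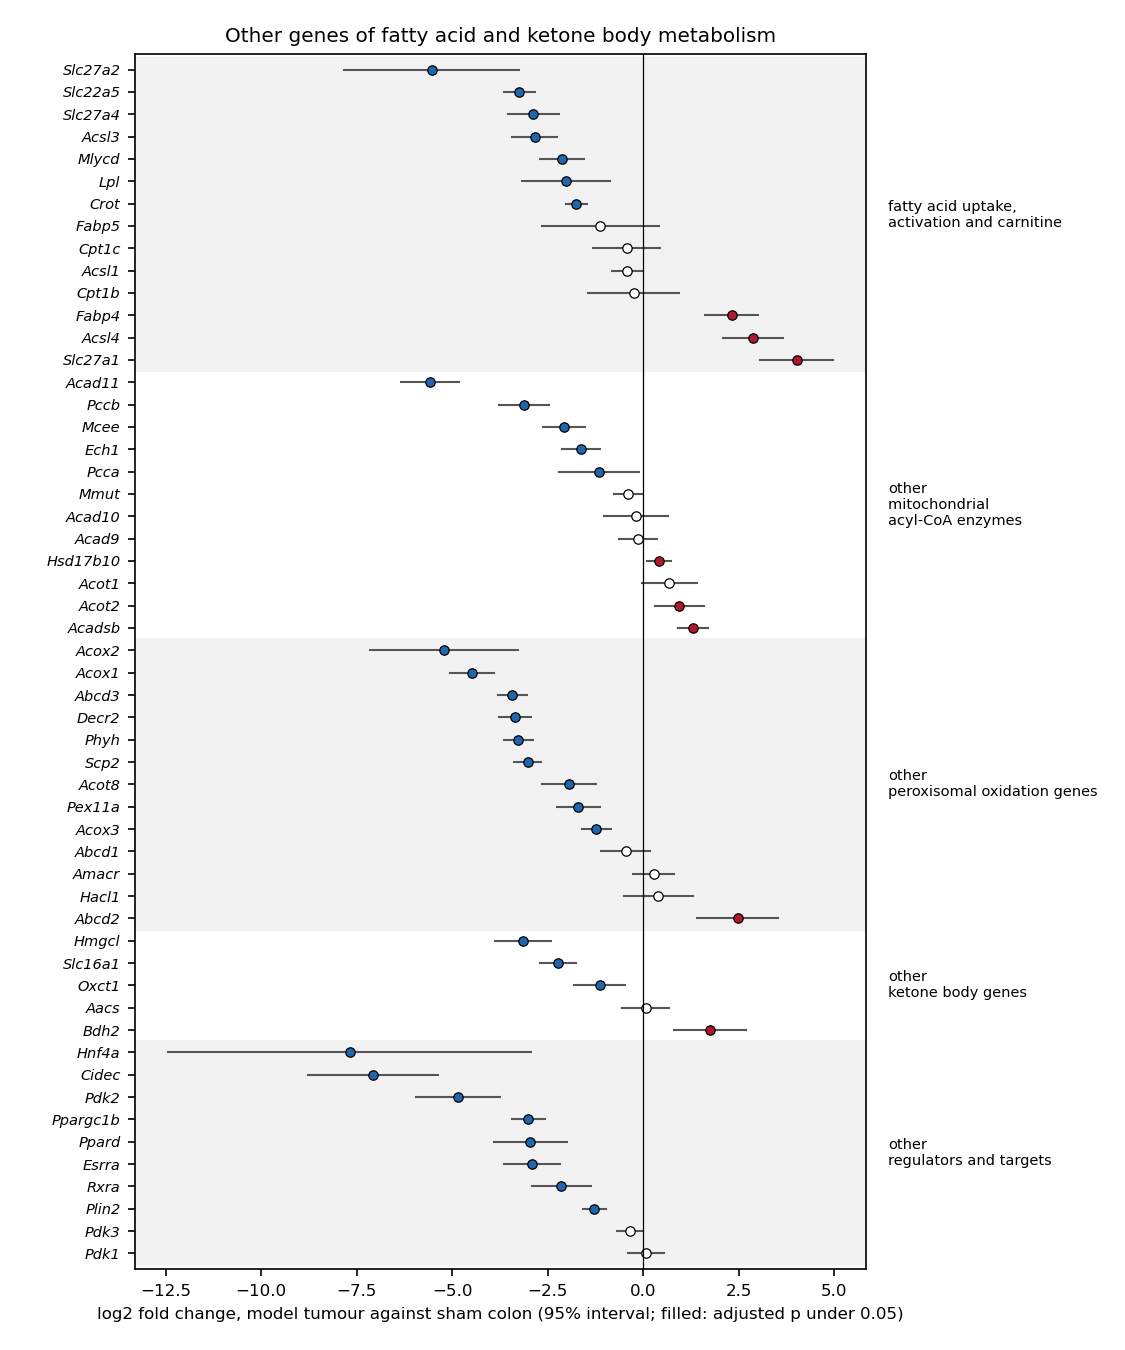
Log2 fold change with its 95% interval in model tumours against sham colon for the 54 tested further genes, in 5 groups by function, with filled points called at an adjusted p under 0.05. Points lie to the left for 32 called genes, and the 8 called to the right include Slc27a1 at 4.02 and Abcd2 at 2.48.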

How the data were processed

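Per the labels' protocols, Trizol was used to extract RNA and the VAHTS Universal V6 kit to make libraries. The authors deposited raw counts per gene, for which the submitters' processing notes name featureCounts 1.5.0-p3 and build mm9, and FPKM computed from them. The aligner, strand setting and annotation are not named in those notes or in the labels. Lengths implied by the deposited FPKM lay within 1% of the summed exons of GENCODE M21 for 96.3% of 17737 genes, so symbols and coordinates are those of M21 on GRCm38, and 54409 identifiers were paired with symbols and 37 were not. Features of the authors' own naming took 0.51% to 1.14% of the counts and stayed in the library sizes.

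For each pair of groups, edgeR 4.0.16 (R 4.3.3) was fitted to that pair's 6 libraries (TMM, filterByExpr, robust quasi-likelihood fit, Benjamini-Hochberg, threshold 0.05), and the script was tested on simulated data. A log2 fold change has an SE of its size over the root of F. DESeq2 1.42.0, other scaling, no filter on low counts, 1 fit of all 9 libraries, a replicate block and leaving out each library were tried. Leaving out model tumour 1 and AC tumour 3 together was added after seeing the data. A count of 0 allows up to 3 counts, 0.128 to 0.191 CPM here, and counting intervals and floors cover counting error only. All 35 listed genes are reported. Of the other 57 pathway genes, the called gene with the smallest adjusted p in each direction in each functional group is named, and 1 further item is not reported here. The genes and lists were chosen with earlier results of these data known. Promoter windows are from RefSeq.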

Additional observations from a re-analysis of the deposited data

How the results depend on the processing

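Among the listed genes, 431 of 442 fold changes recomputed for model tumours against colon and 428 of 442 for AC tumours against colon kept their direction and their side of the threshold. The exceptions are the calls of Eci1, Eci2, Hsd17b4, Acat1, Fabp2, Ppara and Ppargc1a given above, Hsd17b4 in AC tumours against colon, which DESeq2 called (-0.69, adjusted p = 0.0367), and Eci1 (-0.79) and Hsd17b4 (-0.94) there without sham 1. Eci2 was not called there without scaling factors (-0.07, adjusted p = 0.711). Without scaling factors the sign turned in model tumours for Eci1 (0.35), Eci2 (0.05) and Hsd17b4 (0.2), and in AC tumours for Eci1 (0.19) and Hsd17b4 (0.08), as the shift of all genes' median is then added. Between AC and model tumours, all tested genes gave 0 calls, 82 higher and 223 lower by DESeq2, 23 and 82 without the filter, 14 and 80 with model tumour 1 and AC tumour 3 both left out, and, with 1 library left out, 0 to 150 higher and 0 to 419 lower, the most without AC tumour 3. Listed genes called were 1 higher by DESeq2 and 1 without the filter, and 0 to 1 lower with a library left out. Of the further pathway genes, 3 were lower by DESeq2 (Pdk1, Acsl1, Slc27a1) and 0 to 2 with a library left out (Acsl1 and Acsl3, without AC tumour 3). Some differences changed sign when a library was left out, among them the largest of the listed genes, Bdh1 (0.86 with no library left out) and Ehhadh (0.6). The log2 ranges, lowest to highest, were Cpt1a (-0.15 to 0.07), Cpt2 (-0.27 to 0.1), Slc25a20 (-0.12 to 0.18), Cd36 (-0.39 to 0.14), Acadvl (-0.17 to 0.04), Acads (-0.02 to 0.16), Etfa (-0.07 to 0.03), Etfb (-0.12 to 0.13), Echs1 (-0.04 to 0.12), Hadhb (-0.08 to 0.15), Acaa2 (-0.18 to 0.13), Decr1 (-0.06 to 0.11), Acaa1a (-0.06 to 0.1), Acaa1b (-0.85 to 0.59), Ehhadh (-0.2 to 1.12), Bdh1 (-1.6 to 3.76), Pparg (-0.69 to 1.48), Ppargc1a (-2.16 to 0.22), Ucp2 (-0.24 to 0.09). With both tumours left out the sign turned for Slc25a20 (-0.05), Cd36 (0.19), Etfb (0.12), Echs1 (-0.03), Hadhb (-0.07), Decr1 (-0.04), Acaa1a (-0.11) and Ucp2 (0.06), and without scaling factors for Etfa (0.0063) and Etfb (0.02). The cause of these changes was not tested.

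With the replicate number as a block, 28 listed genes were lower and 3 higher in model tumours, 29 and 3 in AC tumours against colon, and 0 were called between AC and model tumours. Over all genes the block gave 5499 lower and 6275 higher of 18228 in model tumours against colon. It gave 5337 lower and 5966 higher of 17832 in AC tumours against colon, and 0 of 17137 between AC and model tumours. The same-number correlations of deviations were -0.493, 0.409 and -0.349 between AC and model libraries, and -0.076 to 0.121 between tumour and sham libraries. AC tumour 3 and model tumour 1, of unlike number, had 0.65. With 3 libraries per group and these tumours standing apart, the values cannot decide whether the numbers pair the samples. At this depth Fabp1, Fabp2, Ppara and Pdk4 had too few tumours above the count minimum to be tested between the tumour groups.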

Other observations

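Among the further genes of fatty acid handling, all AC tumours lay below all model tumours for a few. Pdk1, a pyruvate dehydrogenase kinase related to Pdk4, measured 9.39, 14.9 and 10.6 in model tumours and 6.66, 6.9 and 7.26 in AC tumours, a log2 difference of -0.75 (SE 0.164) that edgeR did not call (adjusted p = 0.231). Acsl1, a long-chain acyl-CoA synthetase, measured 2.07, 2.08 and 1.81 against 1.02, 1.2 and 1.42 (-0.71, SE 0.158, edgeR adjusted p = 0.231). Slc27a1 measured 29.5, 33.6 and 40 against 25.5, 24.4 and 26.7 (-0.43). DESeq2 called all 3 lower. Of 51 tested further genes, the groups did not overlap for 3 with AC tumours above and 8 with AC tumours below, against 9.47% and 9.59% of all genes. These genes were picked after their values were seen.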
